A study of Mus musculus with 12 samples.

Results

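Interleukin 6 and 9 chemokines were followed in muscle stem cells (MuSCs) with an inactivated Nedd4l gene and in MuSCs taken into culture. The members are Il6, the CC chemokines Ccl2, Ccl7 and Ccl11, the CXC chemokines Cxcl1, Cxcl2, Cxcl10, Cxcl12 and Cxcl14, and the CX3C chemokine Cx3cl1. They were matched by gene name, and all 10 were listed, among 16169 genes of the genotype table and 16503 genes of the culture table. The list was selected on earlier values of the same libraries, taken here to be the levels and fold changes of both comparisons, so the members' levels and differences are descriptions, and no test is offered as support for them.

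The study asked how the MuSC transcriptome changes when the ubiquitin ligase gene Nedd4l is inactivated, and how it changes when MuSCs become myoblasts. In the genotype comparison, 3 libraries came from WT mice and 3 from Nedd4L-cKO mice (Nedd4L fl/fl Pax7 cre/+), all males aged 5 to 6 weeks. In the culture comparison, 3 further WT mice each gave 1 library of fresh MuSCs and 1 library of myoblasts grown for 3 days with serum and bFGF; their age was not given in the sources used here. Hindlimb MuSCs were sorted as ITGA7+/Hoechst+ cells without CD31, CD45, CD11b or SCA1, and every library was made from 1000 cells by SMART-seq, which copies and amplifies full-length mRNA. In the cKO, Cre expressed from the Pax7 locus removes exon 15, which encodes part of the catalytic domain, so the gene is still transcribed and Cre acts in every cell with a Pax7 history. Whether the WT mice of either comparison carried a floxed allele or Cre was not given in the sources used here.

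Chemokines are small secreted proteins that steer the migration of leukocytes and progenitor cells through G protein-coupled receptors. Il6 is a cytokine that binds a receptor made of Il6ra and the shared signalling chain gp130, encoded by Il6st, and signals through Jak and Stat3; in muscle it is known both as an inflammatory signal and as a factor that contracting fibres and MuSCs produce. Many inflammatory chemokine genes are switched on by NF-kB and interferon signalling, and their mRNAs are often short-lived because AU-rich stretches in the 3′ untranslated region (UTR) recruit decay proteins.

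Promoter windows, the 250 bases upstream of the start of the canonical transcript, are shown first for some of the members. Il6, Cxcl1, Cxcl2 and Cxcl10 were the 4 members whose windows held the NF-kB letters GGGANNTTCC on either strand. Ccl7 and Cxcl12 are given as members without those letters. The windows of Ccl2, Ccl11, Cxcl14 and Cx3cl1, not printed, did not hold them either. The part of these letters in the members' differences was not tested. Capitals mark matches to the NF-kB letters, to the interferon response letters GAAANNGAAA (ISRE) or to the AP-1 letters TGANTCA. Coordinates are on GRCm39. The windows lie at chr5:30217862-30218111 (Il6, + strand), chr5:91038844-91039093 (Cxcl1, + strand), chr5:91051480-91051729 (Cxcl2, + strand), chr5:92496749-92496998 (Cxcl10, - strand), chr11:81936282-81936531 (Ccl7, + strand) and chr6:117145246-117145495 (Cxcl12, + strand).
Il6: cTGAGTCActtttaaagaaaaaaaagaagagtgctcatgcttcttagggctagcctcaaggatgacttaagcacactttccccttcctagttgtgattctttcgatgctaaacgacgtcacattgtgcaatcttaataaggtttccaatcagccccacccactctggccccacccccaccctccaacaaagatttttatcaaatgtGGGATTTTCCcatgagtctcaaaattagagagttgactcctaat
Cxcl1: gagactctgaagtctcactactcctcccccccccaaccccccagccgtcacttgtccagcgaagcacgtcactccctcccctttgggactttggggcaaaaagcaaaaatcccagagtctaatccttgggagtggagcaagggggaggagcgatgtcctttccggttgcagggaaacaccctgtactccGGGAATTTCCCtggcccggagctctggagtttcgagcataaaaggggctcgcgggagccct
Cxcl2: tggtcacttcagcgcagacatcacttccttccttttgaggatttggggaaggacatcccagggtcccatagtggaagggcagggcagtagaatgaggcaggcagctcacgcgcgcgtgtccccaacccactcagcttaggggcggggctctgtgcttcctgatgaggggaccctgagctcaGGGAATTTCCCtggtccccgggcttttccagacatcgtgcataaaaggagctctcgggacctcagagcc
Cxcl10: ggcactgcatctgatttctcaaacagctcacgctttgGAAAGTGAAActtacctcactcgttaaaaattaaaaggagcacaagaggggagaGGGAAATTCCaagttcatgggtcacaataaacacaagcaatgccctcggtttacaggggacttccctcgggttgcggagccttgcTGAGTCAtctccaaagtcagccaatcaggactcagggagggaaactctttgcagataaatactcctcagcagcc
Ccl7: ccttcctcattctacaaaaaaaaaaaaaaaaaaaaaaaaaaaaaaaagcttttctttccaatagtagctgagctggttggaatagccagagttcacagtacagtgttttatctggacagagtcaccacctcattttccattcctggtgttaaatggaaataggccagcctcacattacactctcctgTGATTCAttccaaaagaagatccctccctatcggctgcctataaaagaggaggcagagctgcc
Cxcl12: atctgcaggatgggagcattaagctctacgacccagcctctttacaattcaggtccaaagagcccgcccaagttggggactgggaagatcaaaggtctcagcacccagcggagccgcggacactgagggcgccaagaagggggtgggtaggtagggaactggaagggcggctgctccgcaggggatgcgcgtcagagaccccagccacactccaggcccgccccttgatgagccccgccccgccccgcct
Distances are from the start to the last base of a match as the windows are printed. The NF-kB letters ended 35 bases upstream of the start in Il6, 52 in Cxcl1, 60 in Cxcl2 and 150 in Cxcl10. In Cxcl1 and Cxcl2, where the distance is that of the match in the printed direction, the letters read on both strands, shifted by 1 base, so the capitals cover 11 bases there. These letters occurred in 1.30% of the 21770 mouse promoter windows of the same length. The ISRE letters occurred in 3.32% of all windows and in 2 of the 10 members, 204 bases upstream in Cxcl10 and 103 bases upstream in Cxcl14. The AP-1 letters occurred in 6.17% of all windows and in Il6, Ccl7 and Cxcl10, at 243, 57 and 68 bases upstream. A match describes letters in these windows and not a bound site.

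Several members are neighbours in the genome. Ccl2 (ENSMUSG00000035385, chr11:81926397-81928279), Ccl7 (ENSMUSG00000035373, chr11:81936532-81938351) and Ccl11 (ENSMUSG00000020676, chr11:81948618-81953781) follow each other on the + strand of chromosome 11. Cxcl1 (ENSMUSG00000029380, chr5:91039094-91040974) and Cxcl2 (ENSMUSG00000058427, chr5:91051730-91053797) lie together on the + strand of chromosome 5, where Il6 (ENSMUSG00000025746, chr5:30218112-30224979, + strand) and Cxcl10 (ENSMUSG00000034855, chr5:92494497-92496748, - strand) also lie. The other members lie elsewhere, Cxcl12 (ENSMUSG00000061353) at chr6:117144945-117158328, Cxcl14 (ENSMUSG00000021508) at chr13:56436352-56444603 and Cx3cl1 (ENSMUSG00000031778) at chr8:95498637-95509055.

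Values are the authors' normalized counts, scaled here to RPM (normalized counts per 1000000) by 1 factor per table, and the 2 tables were normalized separately, so levels are compared only within a table. The normalized counts summed to 40323468 to 50687122 per library in the genotype table and to 33189802 to 37595659 in the culture table; the read depth behind them is unknown. Nedd4l, the targeted gene, measured 70.2, 96.5 and 66.7 RPM in WT and 30.2, 36.3 and 22.5 RPM in cKO, without overlap. Pax7, which defines MuSCs, was at 183, 302 and 222 RPM in WT and at 156, 202 and 188 RPM in cKO. Ptprc, the pan-leukocyte gene, was at most 0.465 RPM in the genotype libraries and at most 0.533 RPM in the culture libraries, and none of the 6 neutrophil markers was listed in either table. Pdgfra, which marks fibro-adipogenic cells, was at most 1.34 RPM in the genotype libraries. The 10 fibro-adipogenic markers together, Pdgfra among them, nevertheless summed to 1774 to 3128 RPM in WT and to 1674 to 3752 RPM in cKO. The endothelial gene Pecam1 was at 15.1, 23.7 and 17.4 RPM in WT and at 19.7, 25.7 and 49.9 RPM in cKO.

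Il6 and 6 chemokines were higher in every Nedd4L-cKO library than in any WT library. These were Ccl2, Ccl7 and Ccl11, which attract monocytes and eosinophils, Cxcl1 and Cxcl2, which attract neutrophils, and Cxcl10, which attracts T cells. The means of cKO exceeded those of WT by between 3.87-fold for Cxcl1 and 12.8-fold for Ccl11. All 7 were called, which here required a limma adjusted p of no more than 0.05, a log2 fold change of 1 or more in size and 5 RPM or more on average. Over the 15304 genes tested, 0.653% were called, 0.451% higher and 0.203% lower in cKO, and 19.3% had groups that did not overlap, 9.75% higher and 9.59% lower. Since the members were chosen knowing this contrast, nothing is read from their count. Cxcl12, Cxcl14 and Cx3cl1 were not called. All 10 members reached 10 normalized counts in all 6 libraries of this comparison.

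**Figure D1:**
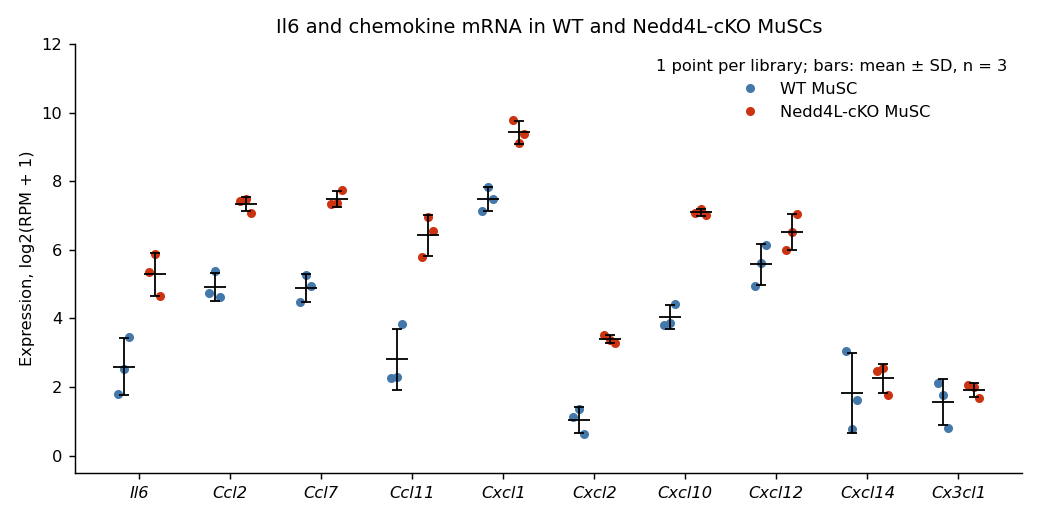
Expression of the 10 members in the genotype comparison as log2(RPM + 1), with 1 point per library (3 WT in blue, 3 Nedd4L-cKO in red) and the mean and SD of each group in black. The red points of Il6, Ccl2, Ccl7, Ccl11, Cxcl1, Cxcl2 and Cxcl10 sit above all blue points, and the groups overlap for Cxcl12, Cxcl14 and Cx3cl1.

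Il6 was at 2.52, 4.72 and 10.03 RPM in WT and at 39.7, 58.3 and 24.0 RPM in cKO. The lowest cKO library lay above the highest WT library, and both groups spread widely. The mean rose from 5.76 ± 3.86 to 40.7 ± 17.2 RPM (SD, n = 3 each), a log2 fold change of 2.70 (SE 0.44, 95% confidence interval 1.73 to 3.67). Il6 lost its call without WT replicate 2 (log2 fold change 2.66), without cKO replicate 1 (2.67) and without cKO replicate 2 (2.40), while its log2 fold change stayed between 2.30 and 3.13 in all 6 such fits.

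Ccl2, a monocyte attractant that signals through Ccr2, was at 25.6, 41.0 and 23.7 RPM in WT and at 172, 177 and 135 RPM in cKO. Ccl7, its neighbour with overlapping receptors, was at 21.1, 37.8 and 29.6 RPM in WT and at 161, 164 and 215 RPM in cKO. In both genes the cKO libraries stood far from the WT libraries and close to each other. The log2 fold change was 2.42 (SE 0.28) for Ccl2 and 2.59 (SE 0.28) for Ccl7. Ccl11, the eosinophil attractant eotaxin, was at 3.85, 3.94 and 13.3 RPM in WT and at 54.3, 123 and 92.0 RPM in cKO. Its log2 fold change of 3.62 (SE 0.44, 95% confidence interval 2.65 to 4.59) was the largest of the 10, although the interval overlapped that of Cxcl10 (2.48 to 3.63).

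Cxcl1 was at 141, 226 and 177 RPM in WT and at 882, 548 and 669 RPM in cKO. It had the smallest difference of the 7, a log2 fold change of 1.94 (SE 0.27), on the highest level. Cxcl2, its neighbour and like it a ligand of Cxcr2, was at 1.18, 1.59 and 0.548 RPM in WT and at 10.5, 9.46 and 8.72 RPM in cKO, a log2 fold change of 2.35 (SE 0.35). Cxcl2 stayed low, with a mean of 5.33 RPM over the 6 libraries, just over the 5 RPM that a call requires. It lost its call without any 1 of the cKO libraries (log2 fold change 2.29 without replicate 1, 2.36 without replicate 2 and 2.41 without replicate 3). The limma adjusted p was 0.0561, 0.0762 and 0.0318 in these fits. Without replicate 3 the call was thus lost only through the 5 RPM requirement. Cxcl2 also shared 80 of the 1081 stretches of 31 bases in its transcript (7.40%) with Cxcl3, which was listed at 0.721, 0.626 and 0 RPM in WT and at 2.45, 3.12 and 2.21 RPM in cKO, so reads between the pair are not fully separable.

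Cxcl10, an interferon-inducible ligand of Cxcr3, was at 12.95, 13.7 and 20.7 RPM in WT and at 134, 145 and 127 RPM in cKO. The cKO libraries were close to each other, at a mean of 136 ± 8.83 RPM (SD, n = 3), and the log2 fold change was 3.05 (SE 0.26). Its exons overlap those of Art3, a gene on the other strand, by 133 bases, and 103 of its 1071 stretches of 31 bases (9.62%) occur in Art3; the library kit does not mark strand, so reads from this overlap cannot be told apart. Art3 was at 57.2, 105 and 238 RPM in WT and at 240, 300 and 268 RPM in cKO (log2 fold change 1.24, SE 0.42, limma adjusted p = 0.208). The groups of Art3 did not overlap, although WT replicate 3 lay just under the lowest cKO library, and the part of Art3 reads in the Cxcl10 values was not tested.

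Cxcl12, the homeostatic ligand of Cxcr4 and Ackr3, was at 30.0, 47.9 and 70.3 RPM in WT and at 63.1, 90.6 and 130 RPM in cKO. The groups overlapped, as WT replicate 3 exceeded cKO replicate 1. Its difference was 0.94 on the log2 scale (SE 0.35), with a 95% confidence interval from 0.18 to 1.71. Cxcl14 was at 7.36, 0.713 and 2.11 RPM in WT and at 4.50, 4.85 and 2.44 RPM in cKO, with an interval from -0.72 to 1.59. Cx3cl1, a membrane-anchored chemokine that is also shed, was at 3.33, 2.38 and 0.763 RPM in WT and at 3.15, 3.00 and 2.22 RPM in cKO, with an interval from -0.52 to 1.22. For Cxcl14 and Cx3cl1 the spread among WT libraries was larger than the difference of the means.

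Set against transcript length, Cxcl1 was the most abundant member in both genotypes. In WT MuSCs Cxcl1 averaged 189 ± 44.5 RPM per kb of canonical transcript (SD, n = 3), followed by Ccl2 (37.0 ± 11.7) and Ccl7 (36.6 ± 10.3), whose ranges overlapped. Cxcl10 followed at 14.3 ± 3.86 RPM per kb, below the range of Ccl7, and from Cxcl10 down to Cx3cl1 (0.650 ± 0.391 RPM per kb) the ranges of neighbours overlapped. In cKO the order began with Cxcl1 (730 ± 176 RPM per kb), Ccl7 (223 ± 37.6), Ccl2 (198 ± 28.1), Cxcl10 (123 ± 8.02), Ccl11 (80.6 ± 30.9) and Il6 (35.7 ± 15.04). Ccl11 and Il6 had ranked below Cxcl12 in WT and ranked above it in cKO, although the ranges of Il6 and Cxcl12 (16.7 ± 5.95 RPM per kb) overlapped.

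The members differed in the length and AU content of their 3′ UTRs. The pentamer ATTTA, the core of AU-rich decay elements, and the longer element TTATTTA were counted in the canonical 3′ UTR of each gene on its own strand, features chosen with the values known. ATTTA occurred 11 times in the 734 bases of Cxcl2 (14.99 per kb), 7 times in the 592 bases of Cxcl1 (11.8 per kb) and 6 times in the 427 bases of Il6 (14.1 per kb). Ccl11 held 5 in 644 bases (7.76 per kb), Ccl7 held 2 in 435 bases (4.60 per kb), Ccl2 held 1 in 275 bases (3.64 per kb) and Cxcl10 held 2 in 729 bases (2.74 per kb). Cxcl12 held 4, more than Ccl2, Ccl7 or Cxcl10, but in 5188 bases (0.771 per kb), and Cxcl14 and Cx3cl1 held 1 each, in 1887 bases (0.530 per kb) and 1871 bases (0.534 per kb). The median over mouse protein-coding transcripts with a 3′ UTR of at least 100 bases was 1.38 per kb. The longer element occurred 7 times in Cxcl2, 3 times in Cxcl1, 2 times in Ccl7, once each in Ccl2, Cxcl14 and Cx3cl1, and not in Il6, Ccl11, Cxcl10 or Cxcl12. Whether other genes rich in these letters differed between genotypes was not tested.

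In the culture comparison the same inflammatory chemokines were at most 1.23 RPM in myoblasts. Ccl2, Ccl7, Ccl11, Cxcl1, Cxcl2 and Cxcl10 fell, and Cxcl12 and Cx3cl1 rose. Thus 8 of the 10 members were called at a limma adjusted p of no more than 0.05, beside 42.8% of the 15345 genes tested (22.2% higher and 20.6% lower in myoblasts). Groups did not overlap for 55.2% of tested genes, 28.4% higher and 26.8% lower. Il6 and Cxcl14 were not called. Each of the 6 genes that fell met the filter only because the fresh MuSC libraries reached 10 normalized counts, and no myoblast library did so for Ccl11 or Cxcl1.

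**Figure D2:**
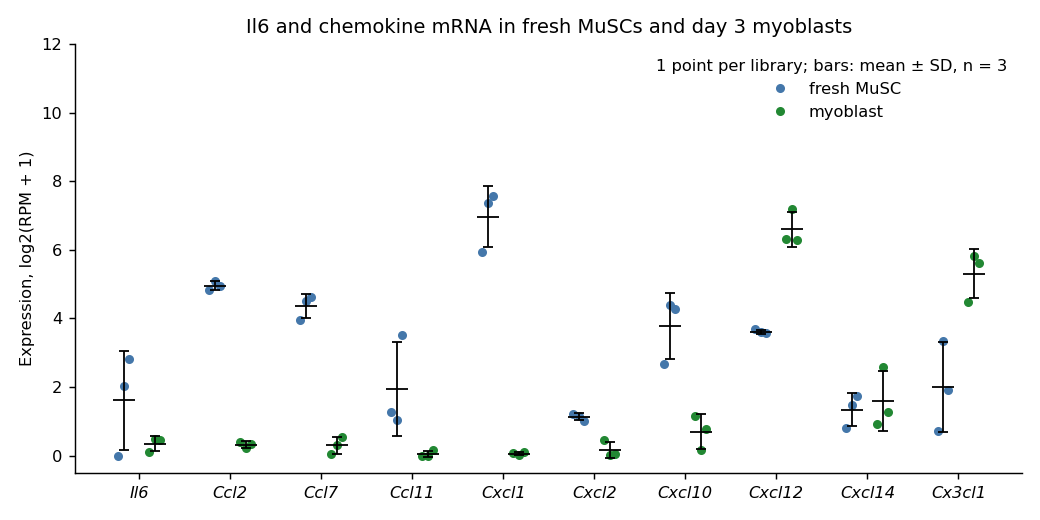
Expression of the 10 members in the culture comparison as log2(RPM + 1), with 1 point per library (3 fresh MuSC in blue, 3 myoblast in green) and the mean and SD of each group in black. Myoblast values of Ccl2, Ccl7, Ccl11, Cxcl1 and Cxcl2 lie near 0, whereas those of Cxcl12 and Cx3cl1 lie above all fresh MuSC values.

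Ccl2 was at 27.5, 33.3 and 29.6 RPM in fresh MuSCs and at 0.324, 0.162 and 0.268 RPM in myoblasts of the same mice, 120-fold lower by the means. Ccl7 was at 14.5, 22.0 and 23.7 RPM in fresh MuSCs and at 0.0372, 0.244 and 0.455 RPM in myoblasts. Ccl2 and Ccl7 were steady among mice before culture, and their log2 fold changes were -4.63 (SE 0.30) and -4.06 (SE 0.33). Their myoblast values stand for 5.7 to 11.4 normalized counts in Ccl2 and 1.31 to 16.0 in Ccl7, so the size of these fold changes is not reliable. Ccl11 was at 1.44, 1.07 and 10.5 RPM in fresh MuSCs, listed at 0 in 2 of the myoblast libraries and at 0.119 RPM in the third. Its log2 fold change of -1.90 rested in large part on fresh MuSC replicate 6 and was -1.11 without it. Without any 1 of the myoblast libraries Ccl11 was no longer called, with log2 fold changes of -1.87 without replicate 4 or 5 and -1.95 without replicate 6.

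Cxcl1 was at 60.7, 165 and 191 RPM in fresh MuSCs and at 0.0482, 0.0130 and 0.0770 RPM in myoblasts. The myoblast values stand for 0.457 to 2.71 normalized counts, beside 2140 to 6730 in fresh MuSCs, and the log2 fold change was -6.91 (SE 0.44). With myoblast values this low, the fold changes of the genes that fell depend on the pseudocount of 1 RPM. With 0.1 RPM the log2 fold change was -9.76 for Cxcl1, -6.45 for Ccl2, -6.05 for Ccl7, -4.36 for Ccl11 and -4.36 for Cxcl10, and all were still called. Cxcl2 was at 1.34, 1.21 and 1.03 RPM in fresh MuSCs and at 0.361, 0.0129 and 0.0344 RPM in myoblasts, and was thus low in both groups, with a log2 fold change of -0.96 that became -2.75 with a pseudocount of 0.1 RPM. Cxcl10 was at 5.43, 19.9 and 18.5 RPM in fresh MuSCs and at 1.23, 0.115 and 0.725 RPM in myoblasts, with a log2 fold change of -3.08 (SE 0.51). Art3, which overlaps Cxcl10, was at 8.23, 79.6 and 76.0 RPM in fresh MuSCs and at 2.28, 1.39 and 1.26 RPM in myoblasts (limma adjusted p = 0.00337).

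Il6 was listed at 0 RPM in the fresh MuSCs of replicate 4, and at 3.07 and 6.01 RPM in those of replicates 5 and 6. In myoblasts it was at 0.0816, 0.407 and 0.373 RPM. The groups overlapped only through the library at 0, and the difference was -1.26 on the log2 scale (SE 0.60), with a 95% confidence interval from -2.62 to 0.11. Leaving out 1 library moved the log2 fold change from -2.06 without fresh MuSC replicate 4, where Il6 was called lower in myoblasts, to -0.66 without fresh MuSC replicate 6, where it was not (limma adjusted p = 0.359).

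Cxcl12 and Cx3cl1 moved the other way. Cxcl12 was at 11.8, 11.1 and 10.9 RPM in fresh MuSCs and at 79.0, 145 and 76.6 RPM in myoblasts. Its log2 fold change was 2.98 (SE 0.29). Cx3cl1 was at 0.651, 9.22 and 2.81 RPM in fresh MuSCs and at 21.4, 55.0 and 48.0 RPM in myoblasts, and its log2 fold change was 3.30 (SE 0.64). Every myoblast library exceeded every fresh MuSC library for both genes. Of the stretches of 31 bases in Cx3cl1, 12.2% also occur in 1700121C10Rik, a gene that overlaps its exons on the other strand. Cxcl14 was at 0.764, 1.78 and 2.33 RPM in fresh MuSCs and at 0.892, 5.02 and 1.43 RPM in myoblasts, without separation.

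In myoblasts the order by length was headed by Cxcl12 (17.7 ± 6.87 RPM per kb, SD, n = 3) and Cx3cl1 (12.51 ± 5.34 RPM per kb), whose ranges overlapped, and the other 8 members were at or below 0.837 RPM per kb. In the fresh MuSCs of this table Cxcl1 (145 ± 72.0 RPM per kb), Ccl2 (37.1 ± 3.61), Ccl7 (24.8 ± 6.04) and Cxcl10 (13.3 ± 7.25) came first, in the order seen in the WT MuSCs of the genotype table.

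**Figure D3:**
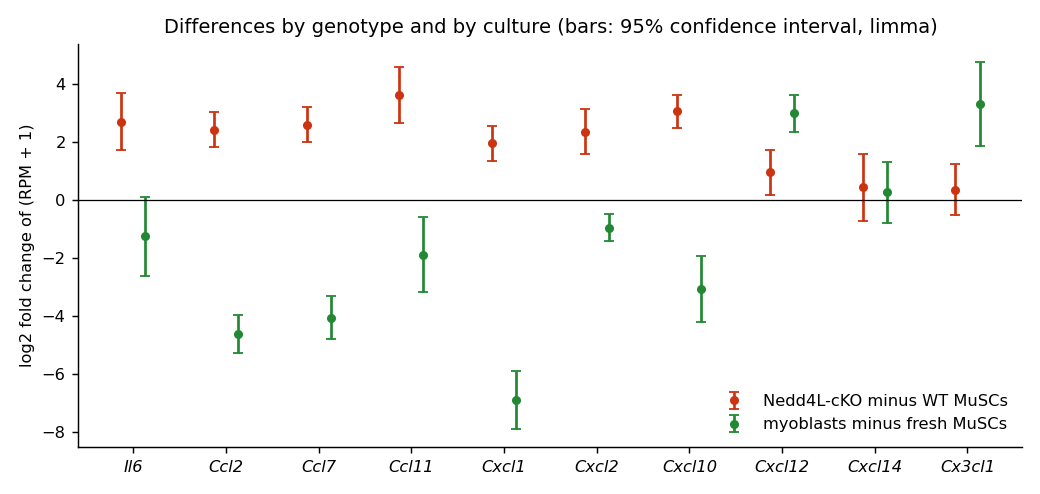
Log2 fold change of RPM + 1 for each member with its 95% confidence interval (limma), for Nedd4L-cKO minus WT MuSCs in red and for myoblasts minus fresh MuSCs in green. Il6, Ccl2, Ccl7, Ccl11, Cxcl1, Cxcl2 and Cxcl10 lie above 0 in red and below 0 in green, and the green interval of Il6 includes 0; Cxcl12 and Cx3cl1 lie near 3 in green.

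Across the 12 libraries, with log2(RPM + 1) centred on the mean of each table, Ccl2 and Ccl7 were each other's closest match among 9545 genes (Pearson r = 0.984). These correlations are descriptions that share the group differences of both tables, and no p is attached. Cxcl1 was most like Psmb9, an immunoproteasome subunit (r = 0.996), Ccl19 (0.992) and the metallothionein gene Mt2 (0.991). Cxcl10 was most like B2m, the light chain of MHC class I (r = 0.966), Gpc3 (0.963) and Car5b (0.962), and Ccl11 was also most like B2m (0.933). Il6 was most like the mitochondrial genes mt-Co3 (r = 0.925) and mt-Cytb (0.916) and the stress gene Nupr1 (0.914). Cxcl2 was most like Atf4, a stress-response transcription factor (r = 0.943), Cxcl12 like Ano1 (0.987), Cx3cl1 like Lrp4 (0.970) and Cxcl14 like Alg9 (0.848). Among the members themselves, Il6 ran closest to Ccl11 (r = 0.903) and Cxcl12 closest to Cx3cl1 (0.769), whereas Cxcl1 and Cxcl12 ran opposite (-0.782).

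Of 29 other chemokine ligands on the list, 14 were tested in the genotype comparison and none was called, with 5 at an unadjusted p under 0.05 (limma), a level that 14.6% of all tested genes passed. Their median log2 fold change was 0.47, beside 0.00 for all tested genes. Ccl19, which guides lymphocytes and dendritic cells through Ccr7, had the highest level and was at 76.6, 94.97 and 131 RPM in WT and at 320, 258 and 183 RPM in cKO (limma adjusted p = 0.0648). Cxcl13, named after its values were seen, was listed at 0, 0 and 0.0706 RPM in WT and at 4.10, 5.62 and 1.71 RPM in cKO. Its limma adjusted p was 0.0189, but its mean was under 5 RPM, and it met the filter only through the cKO libraries. In culture, 10 of these ligands were tested, of which 6 fell and 2 rose, beside 20.6% of all tested genes called lower and 22.2% called higher. Ccl19 fell from 51.6, 120 and 133 RPM to 0.600, 0.160 and 0.118 RPM (limma adjusted p = 1.06e-05), and Ccl27a, Cxcl16, Pf4, Ccl5 and Cxcl11 fell as well. Ccl5 and Cxcl11 reached 10 normalized counts in no myoblast library, so they met the filter only through the fresh MuSCs. Cxcl13 rose from 0.428, 0 and 0 RPM to 5.76, 7.02 and 1.76 RPM (limma adjusted p = 0.0026), and Ccl28 rose at levels of at most 1.02 RPM. Ccl28 reached 10 normalized counts in no fresh MuSC library, so it met the filter only through the myoblasts.

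No chemokine receptor was called between genotypes among the 10 tested, and none had an unadjusted p under 0.05 (limma). Ackr3, a scavenging receptor of Cxcl12, had the highest level, at 206, 256 and 219 RPM in WT and at 179, 253 and 142 RPM in cKO. Ccr2, the receptor of Ccl2 and Ccl7, was at most 0.435 RPM, and Cxcr3, the receptor of Cxcl10, was not listed. Cxcr2, the receptor of Cxcl1 and Cxcl2, was at 14.3, 15.4 and 18.8 RPM in WT and at 24.7, 13.8 and 17.04 RPM in cKO. In culture 3 of the 10 receptors tested fell, beside 20.6% of all tested genes called lower. Ackr3 fell from 245, 113 and 105 RPM to 35.1, 20.9 and 12.9 RPM (limma adjusted p = 0.00103), Cxcr4 from 41.3, 35.9 and 28.7 RPM to 2.57, 7.59 and 8.65 RPM (0.00162) and Ccrl2, which binds chemerin, from 37.3, 31.6 and 19.7 RPM to at most 0.312 RPM (1.84e-05). The Cxcl12 receptors Cxcr4 and Ackr3 were thus lower in the myoblasts in which Cxcl12 was higher. Ccr7 and Ackr4 rose, from values of at most 0.177 RPM to at most 1.36 RPM, beside 22.2% of all tested genes called higher. Neither reached 10 normalized counts in any fresh MuSC library, so both met the filter only through the myoblasts.

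The Il6 receptor needs Il6ra beside the shared chain encoded by Il6st, and Il6ra was low. Il6st was at 99.0, 139 and 98.6 RPM in WT and at 76.7, 80.5 and 82.1 RPM in cKO, and Il6ra at 2.99, 0.838 and 0.982 RPM in WT and at 0.0770, 0.236 and 0.425 RPM in cKO. Both groups were apart, yet neither gene was called (limma adjusted p = 0.405 and 0.188). Il6ra, with a mean of 0.924 RPM over the libraries, was under the 5 RPM that a call requires. None of the 7 other ligands of the Il6 family that were tested was called between genotypes, nor did any have an unadjusted p under 0.05 (limma). In myoblasts 3 of the 7 fell, Lif and Cntf among them, and none rose, beside 20.6% of all tested genes called lower and 22.2% called higher.

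Among 11 other cytokines tested between genotypes none was called, with 3 at an unadjusted p under 0.05 (limma). Mif had the highest level, at 182, 153 and 210 RPM in WT and at 269, 212 and 179 RPM in cKO. Tslp, an epithelial cytokine named after its values were seen, was at 2.09, 1.29 and 1.44 RPM in WT and at 8.15, 8.30 and 7.71 RPM in cKO, with a limma adjusted p of 0.0392 but a mean under 5 RPM. Csf2 was listed at 0 in all 3 WT libraries and at 5.82, 1.64 and 0.771 RPM in cKO (limma adjusted p = 0.0968), and it met the filter only through the cKO libraries. In myoblasts Csf1, the macrophage growth factor, rose from 9.93, 7.51 and 3.82 RPM to 384, 416 and 245 RPM (limma adjusted p = 8.03e-06), Il34 and Il1b rose as well, and Il18 fell. Il1b reached 10 normalized counts in no fresh MuSC library, so it met the filter only through the myoblasts. Of the 10 cytokines tested in culture 3 rose and 1 fell, beside 22.2% and 20.6% of all tested genes.

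Genes that act on the transcription and decay of such mRNAs are read against the 0.653% of all tested genes that were called between genotypes and the 14.6% at an unadjusted p under 0.05. None of 14 NF-kB subunits and inhibitors was called, with 1 at an unadjusted p under 0.05 (limma), and the inhibitor gene Nfkbia, itself an NF-kB target, was at 944, 1157 and 823 RPM in WT and at 1670, 1124 and 1097 RPM in cKO. None of 10 cytokine mRNA decay factors was called, with 1 at an unadjusted p under 0.05 (limma). The groups did not overlap for 3 of the 10, Rc3h1, Hnrnpd and Cnot1, all lower in cKO. Of all tested genes, 9.59% were lower without overlap. The highest decay factor, Zfp36l1, was at 447, 862 and 551 RPM in WT and at 335, 698 and 645 RPM in cKO. Of 16 immediate early genes Ier3 alone was called, rising from 32.3, 36.8 and 28.9 RPM to 92.4, 63.0 and 94.5 RPM (limma adjusted p = 0.0467). In all, 6 of the 16 had an unadjusted p under 0.05 (limma), and the groups did not overlap for 5, of which 2 were higher and 3 lower in cKO. Fos, the highest of these genes, was at 2461, 3548 and 4161 RPM in WT and at 5261, 4501 and 3520 RPM in cKO, with overlap. Neither Adam10 nor Adam17, the proteases that shed Cx3cl1, was called between genotypes.

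In culture, where 20.6% of all tested genes were called lower and 22.2% higher, members of the same lists fell. Of the immediate early genes 15 of 16 fell, with Fos going from 3944, 7348 and 6632 RPM to 18.2, 17.4 and 18.8 RPM (limma adjusted p = 2.73e-07). Of the NF-kB genes 8 of 14 fell and Ikbkg rose, with Nfkbia going from 655, 839 and 596 RPM to 29.9, 46.3 and 48.1 RPM. Of the decay factors 6 of 10 fell, among them Zfp36, which encodes tristetraprolin, from 187, 265 and 276 RPM to 3.71, 5.19 and 6.66 RPM (limma adjusted p = 3.08e-06). Adam10 fell too (limma adjusted p = 0.0243). The part of these genes in the chemokine differences was not tested.

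Markers of other cells were set beside the chemokines. In the genotype libraries no gene of the 11 cell type lists was called. The summed level of mural cell markers, of which 7 of 8 were listed, ran from 1407 to 2191 RPM in WT and from 2503 to 3508 RPM in cKO, without overlap, and 5 of the 7 tested genes had an unadjusted p under 0.05 (limma), beside 14.6% of all tested genes. The 9 myofibre markers summed to 252 to 486 RPM in WT and to 536 to 642 RPM in cKO, also without overlap, and 5 of the 9 had an unadjusted p under 0.05 (limma). Their part in the chemokine differences was not tested, and in bulk libraries a change in the number of cells of a type and a change in RNA per cell cannot be told apart. The 5 of 12 macrophage markers that were listed summed to 2.24, 2.74 and 38.8 RPM in WT and to 2.68, 8.54 and 10.2 RPM in cKO, and the high WT value came from Lyz2 at 33.6 RPM in replicate 3. Without WT replicate 3, all 7 members were still called, which shows only that the calls did not depend on that library. The part of macrophage RNA in the chemokine differences was not tested. Fibro-adipogenic markers overlapped, at 1774 to 3128 RPM in WT and 1674 to 3752 RPM in cKO, and endothelial markers overlapped at 64.8 to 107 RPM in WT and 55.6 to 98.0 RPM in cKO, with Cdh5, Kdr, Emcn and Cldn5 not listed. Of the 6 endothelial markers tested, 3 had an unadjusted p under 0.05 (limma). Without overlap, 2 of the 6 were higher and 1 was lower in cKO, beside 9.75% and 9.59% of all tested genes. Lymphocyte markers, with 3 of 6 listed and Cd3e and Nkg7 among those not listed, summed to 2.85 to 5.83 RPM in WT and 1.89 to 2.02 RPM in cKO. These sums did not overlap, although none of the 3 genes separated the groups alone. Schwann cell markers overlapped at 618 to 720 RPM and 649 to 736 RPM, tenocyte markers at 181 to 1521 RPM and 328 to 1122 RPM, MuSC markers at 5493 to 9249 RPM and 4994 to 8295 RPM, and myogenic progression markers at 341 to 990 RPM and 560 to 981 RPM.

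**Figure D4:**
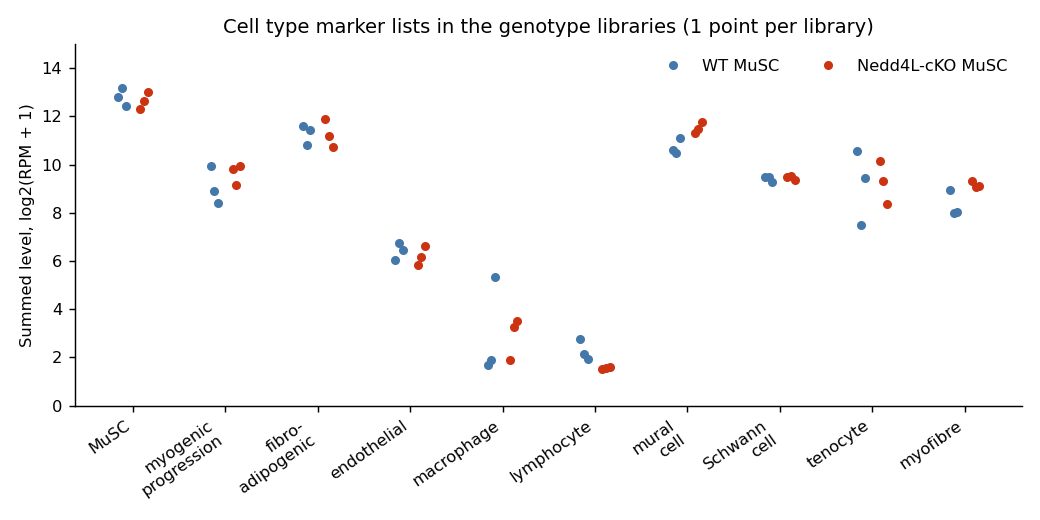
Summed level of each cell type marker list in the genotype libraries as log2(RPM + 1), with 1 point per library (WT in blue, Nedd4L-cKO in red). Mural cell and myofibre sums are higher in all 3 Nedd4L-cKO libraries, lymphocyte sums, of only 3 listed genes, are lower, and the other lists overlap.

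In the culture libraries several lists fell beside the chemokines. MuSC markers summed to 5518 to 7786 RPM in fresh MuSCs and to 783 to 852 RPM in myoblasts, fibro-adipogenic markers to 2133 to 2347 RPM and to 129 to 209 RPM, and Schwann cell markers to 694 to 773 RPM and to 32.5 to 54.8 RPM. Myogenic progression markers summed to 1087 to 1363 RPM in fresh MuSCs and to 6405 to 9896 RPM in myoblasts. Their part in the chemokine differences was not tested. Macrophage markers, with 5 of 12 listed, summed to 2.74 to 6.65 RPM in fresh MuSCs and to 3.76 to 4.36 RPM in myoblasts, and mural cell markers to 1444 to 1685 RPM and to 1664 to 2426 RPM, both with overlap. Endothelial markers summed to 43.8 to 46.5 RPM and to 11.8 to 21.7 RPM, lymphocyte markers to 2.01 to 2.33 RPM and to 1.33 to 1.46 RPM, tenocyte markers to 10.9 to 11.8 RPM and to 23.4 to 107 RPM, and myofibre markers to 361 to 547 RPM and to 9111 to 20880 RPM, none of them with overlap.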

How the data were processed

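Per the labels and the methods, the authors quantified reads with kallisto 0.46.1, summed the estimates to genes and processed them with DESeq2 (the authors' version is not given in the sources used here). The deposited values are a signal, namely estimated counts that the authors divided by normalization factors, 1 table per comparison; the deposited fold changes and p-values of the authors were not used, nor were 18 other per-sample columns (repeated counts and RPM).

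Here each value was divided by the average of its table's 6 library totals and expressed as RPM. Genes that reached 10 normalized counts in 3 or more libraries were tested on log2(RPM + 1) with limma 3.58.1 in R 4.3.3 (trend, robust, group as the only term, Benjamini-Hochberg over all tested genes). Fold changes on this scale understate those of low genes. A call needed an adjusted p of no more than 0.05. Between genotypes it also needed a log2 fold change of 1 or more in size and 5 RPM or more on average. The study names the same cut-offs, without saying how RPM was taken over libraries. The average over all 6 libraries was chosen here. The limma step was tested on simulated data. All 12 libraries were used, grouped by genotype and cell type in the labels. The labels do not say that libraries were prepared in batches, so none could be examined.

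The members and lists were chosen with earlier results of these data known, so no test over the members was made. All members are named; of each other list, called genes (up to 6 by p) and the gene with the highest mean; of marker lists, called genes (up to 3) and Ptprc, Pecam1, Pdgfra and Pax7; and the 3 genes most like each member among genes of at least 5 RPM in both tables. Same-numbered libraries of the culture comparison come from the same mouse by the study's design (correlations of their deviations across genes -0.0314, -0.00502 and 0.0180). Promoters, positions, lengths, 3′ UTRs and shared stretches came from GENCODE M39 on GRCm39, with promoter windows taken upstream of the canonical transcript start. All 10 members matched by name. Protein sequences were not used here. Python 3.11.15 and matplotlib 3.10.9 were used.

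Alternatives were a pseudocount of 0.1 RPM, no filter, a filter on every library, scaling to each library's own total, RLE factors, limma without trend and robust moderation, a replicate block and each library left out. As depth is unknown, no counting interval is given, and the precision rests on 3 libraries per group. The values of 2 genes on the fixed lists are not reported here.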

Additional observations from a re-analysis of the deposited data

How the results depend on the processing

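Between genotypes, 100 genes were called, 69 higher and 31 lower. Requiring 10 normalized counts in every library gave 195 genes, limma without trend and robust moderation gave 41 and the replicate block gave 62; leaving out each library in turn gave 17 (without Nedd4L-cKO replicate 2) to 106, with 44 without Nedd4L-cKO replicate 1, 59 without WT replicate 1 and 32 without WT replicate 2. Scaling each library to its own total gave 49 higher and 38 lower, and leaving out Nedd4L-cKO replicate 3 gave 54 and 52. The count of members called stayed at 7 under the other settings, was 6 without trend and robust moderation, where Il6 was lost, and 5 to 7 with a library left out. WT and Nedd4L-cKO libraries share only a number (correlations of deviations 0.0192, -0.0232 and -0.181). In culture, 8 members were called under every setting except the filter on every library, which left 3 members to be tested and 2 called, and the leave-one-out fits, with 7 to 9; the replicate block there gave 6078 genes beside 6566 and no other count of members. Signs turned only where the groups overlapped. Between genotypes, the fits that left out a library gave -0.088 (without WT replicate 2) to 1.06 for Cxcl14 and -0.022 (without WT replicate 3) to 0.63 for Cx3cl1. In culture they gave -0.24 (without myoblast replicate 5) to 0.59 for Cxcl14, which was also -0.0096 without fresh MuSC replicate 4. These are log2 fold changes, and the cause was not tested. When a library was left out, the genes tested were those of the full fit. Members under 10 normalized counts in 1 or more libraries of a group have no reliable fold change. In myoblasts these were Il6, Ccl2, Ccl7, Ccl11, Cxcl1, Cxcl2 and Cxcl10.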
